A study of Mus musculus with 23 samples.

Results

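Lower glycolysis and lactate export were followed through 10 genes of the 22350 counted in these libraries. The genes were taken from a list, chosen with earlier results of these data known, and not by a rule on measured values. They encode the enzymes that carry triose phosphate to pyruvate (Tpi1, Gapdh, Pgk1, Pgam1, Eno1, Eno1b and Pkm), the lactate dehydrogenase subunit Ldha, and the monocarboxylate transporters Slc16a1 and Slc16a3. Eno1 and Eno1b share most of their sequence and so share reads, and they were therefore also summed, which leaves 9 values per sample. All 10 genes passed the filter on low counts in every comparison.

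In lower glycolysis, glyceraldehyde 3-phosphate is oxidised and its carbon passes through phosphoglycerates and phosphoenolpyruvate to pyruvate, with ATP made at the steps of phosphoglycerate kinase and pyruvate kinase. Lactate dehydrogenase turns pyruvate into lactate and restores the NAD+ that Gapdh needs, and the lactate leaves the cell with a proton through monocarboxylate transporters. mTORC1, the nutrient-sensing kinase complex of which Raptor (Rptor) is a defining subunit, is known to raise the output of glycolytic genes through the transcription factors HIF-1 and Myc. In the intestinal crypt, Paneth cells are known for glycolysis and lactate release, and the neighbouring stem cells for mitochondrial use of pyruvate.

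The data came from C57BL/6 mice and from small intestinal organoids grown from such mice. WT organoids (VillinCre.ERT2.RPL22.HA) and Rptor fl/fl organoids (VillinCre.ERT2.Rptor.fl/fl, without the tagged ribosomal protein in the RNA-seq labels) were measured by RNA-seq in 4 libraries each, made from 2 organoid lines per genotype. Stem cell enriched (SCe) organoids were VillinCre.ERT2.RPL22.HA organoids grown with CHIR 99021 at 10 µM and valproic acid at 1.5 mM, with 3 RNA-seq and 3 Ribo-seq libraries. Ribo-seq, which sequences the mRNA pieces protected by ribosomes (footprints), was also made from 3 libraries of VillinCre.ERT2.Rptor.fl/fl.RPL22.HA organoids, and from 3 WT mice (Lgr5Cre.ERT2.RPL22.HA) and 3 Rptor fl/fl mice, which carry the floxed allele beside the same Cre and tag. The Villin driver acts in the whole intestinal epithelium. The Lgr5 driver acts in stem cells, and the mouse footprints came from ribosomes pulled down by their HA tag from whole small intestine shortly after induction. The labels call the animals and organoids untreated, whereas the methods of the study describe tamoxifen to activate the Cre. The absence of the tag from the Rptor fl/fl RNA-seq organoids and the deletion of Rptor cannot be told apart in comparisons of mRNA with WT or SCe organoids.

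RNA-seq libraries held 23802944 to 67598878 reads, organoid Ribo-seq libraries 1106178 to 8257457 and mouse Ribo-seq libraries 772077 to 8238388. Rptor mRNA read 51.5 and 47.9 CPM (counts scaled to library size) in WT lines, 60.8, 54.0 and 53.7 in SCe organoids, and 14.8 and 15.5 in Rptor fl/fl lines, which is lower than WT by a log2 fold change of -1.71 (SE 0.08, adjusted p = 0.00516). In footprints the libraries labelled Rptor fl/fl were not separated by this gene at the 0.05 threshold (organoids -0.53, SE 0.34, adjusted p = 0.318; mice -0.28, SE 0.12, adjusted p = 0.15). The first SCe RNA-seq replicate stood apart from the other 2, with a chi-square per degree of freedom of 172 to 192 against them, where the other 2 gave 19.8 against each other. Summed levels of marker genes moved with the groups too. In mRNA, the 13 Paneth cell markers summed to 5554 to 6922 CPM in WT, 1002 to 2106 in Rptor fl/fl and 1245 to 4388 in SCe organoids, and the 10 goblet cell markers to 2404 to 2627, 3667 to 5094 and 486 to 1335. In organoid footprints, the 10 stromal markers summed to 143 to 812 CPM in SCe and 6.35 to 11 CPM in Rptor fl/fl libraries. In mice, the 7 erythroid markers summed to 154 to 178 CPM in WT and 817 to 991 in Rptor fl/fl libraries, and the Paneth cell markers to 12727 to 13561 and 6991 to 10675. Their part in the results was not tested. In bulk samples such as these, fewer cells of a type and less RNA per cell cannot be told apart.

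In the GRCm38 (mm10) build with GENCODE vM21 genes, Tpi1 lies at chr6:124810586-124814296 and Gapdh at chr6:125161715-125166467, both on the minus strand. On the plus strand lie Pgk1 (chrX:106187100-106203699), Pgam1 (chr19:41911923-41918660), Eno1 (chr4:150236721-150248879), Pkm (chr9:59656368-59679375), Ldha (chr7:46841475-46855627), Slc16a1 (chr3:104638668-104658462) and Slc16a3 (chr11:120948480-120960868).

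Promoters of 3 of the 5 genes whose mRNA fell in Rptor fl/fl against WT organoids are shown first, chosen after their letters were seen, because they hold the motif described here. Each stretch holds the 250 bases before a RefSeq start in GRCm38.p6, read 5′ to 3′ on the gene's strand, which is the plus strand for all 3. Capitals mark ACGTG or GCGTG on either strand, the core of the element that HIF-1 binds; CACGTG, the E-box known for Myc, contains it. Of 32851 promoter windows of this length, 16.6% held ACGTG, 28.2% GCGTG, 38.6% either of these and 6.0% CACGTG. Of the 2 Ldha windows, the one shown (chr7:46845554-46845803) held 5 matches to ACGTG over both strands and 2 of CACGTG, and the other (chr7:46846832-46847081) held 0 of either and 1 of GCGTG. The windows of Slc16a3 (chr11:120948817-120949066) and Pgk1 (chrX:106186850-106187099) held 2 matches to ACGTG each. Among the other genes that fell, the Tpi1 window held 0 matches to ACGTG or GCGTG, and the 2 Pkm windows held 0 and 1. Windows of genes that did not pass the test held matches too. The Slc16a1 window held 2 to ACGTG over both strands, 2 to GCGTG and 1 of CACGTG. The Pgam1 window held 1 to ACGTG and 2 to GCGTG, and the Gapdh window 0 and 2. The Eno1 windows held 0 to ACGTG and 1 or 2 to GCGTG. These matches describe letters in a window and not binding, which was not measured here.
Ldha: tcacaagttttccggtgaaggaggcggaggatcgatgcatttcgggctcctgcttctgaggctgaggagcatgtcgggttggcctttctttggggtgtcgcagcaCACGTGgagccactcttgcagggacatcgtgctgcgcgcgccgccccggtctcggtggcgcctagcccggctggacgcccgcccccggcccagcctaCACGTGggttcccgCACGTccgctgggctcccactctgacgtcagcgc
Slc16a3: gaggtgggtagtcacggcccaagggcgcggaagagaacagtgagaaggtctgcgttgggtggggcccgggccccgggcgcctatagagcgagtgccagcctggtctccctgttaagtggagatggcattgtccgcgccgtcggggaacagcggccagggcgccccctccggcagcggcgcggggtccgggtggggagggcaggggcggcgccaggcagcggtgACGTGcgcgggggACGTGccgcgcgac
Pgk1: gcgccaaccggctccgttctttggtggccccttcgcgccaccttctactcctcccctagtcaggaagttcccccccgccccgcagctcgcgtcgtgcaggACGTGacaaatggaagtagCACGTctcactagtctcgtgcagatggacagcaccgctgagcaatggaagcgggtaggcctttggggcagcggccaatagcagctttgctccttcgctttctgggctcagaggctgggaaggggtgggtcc

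Pkm makes muscle-type and proliferation-type pyruvate kinases (PKM1 and PKM2) by using either of a pair of neighbouring exons. Both exons are coding, are exon 9 of 11 in their transcripts and are 167 bases long. They are shown from GRCm38 on the plus strand, as chr9:59675029-59675195 in transcript Pkm-202 (M1-type) and chr9:59675568-59675734 in Pkm-201 (M2-type). Capitals mark the 64 bases that differ between them, which leaves an identity of 61.7%.
Pkm-202: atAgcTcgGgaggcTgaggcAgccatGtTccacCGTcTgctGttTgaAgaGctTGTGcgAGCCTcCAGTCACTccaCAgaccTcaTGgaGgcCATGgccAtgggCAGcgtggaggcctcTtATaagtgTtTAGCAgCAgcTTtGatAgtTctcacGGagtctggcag
Pkm-201: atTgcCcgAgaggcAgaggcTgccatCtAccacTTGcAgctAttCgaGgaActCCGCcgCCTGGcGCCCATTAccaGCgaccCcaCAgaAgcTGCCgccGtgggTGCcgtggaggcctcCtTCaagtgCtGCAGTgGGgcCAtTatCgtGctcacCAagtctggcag

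Levels between the genes were compared as CPM per kilobase of the effective length that the files give for the counted sequence. By this measure Gapdh was the highest of the 9 in all 7 groups, at 3172 ± 522 (SD, n = 2 lines) in WT mRNA. Ldha was next in WT mRNA, at 1662 ± 259, and also in the mRNA and footprints of Rptor fl/fl organoids and in both groups of mice. Enolase (Eno1 plus Eno1b) took that place in SCe mRNA, at 1629 ± 186 CPM per kilobase (n = 3), where Ldha at 1368 ± 195 lay within about the spread. Pkm at 1286 ± 122 lay below enolase there, without overlap of the samples. In WT mRNA the neighbours Pkm (996 ± 141), enolase (871 ± 168), Pgk1 (854 ± 165) and Tpi1 (843 ± 110) lay within their spread of each other. The transporters were the lowest in every group. Their order turned between groups: Slc16a3 lay above Slc16a1 in SCe mRNA (97.9 ± 17.1 and 48.6 ± 0.8 CPM per kilobase) and below it in Rptor fl/fl mRNA (14.3 ± 0.5 and 39.6 ± 1.4), whereas in WT mRNA they lay within the spread (57.3 ± 17.7 and 44.1 ± 2.7).

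**Figure D1:**
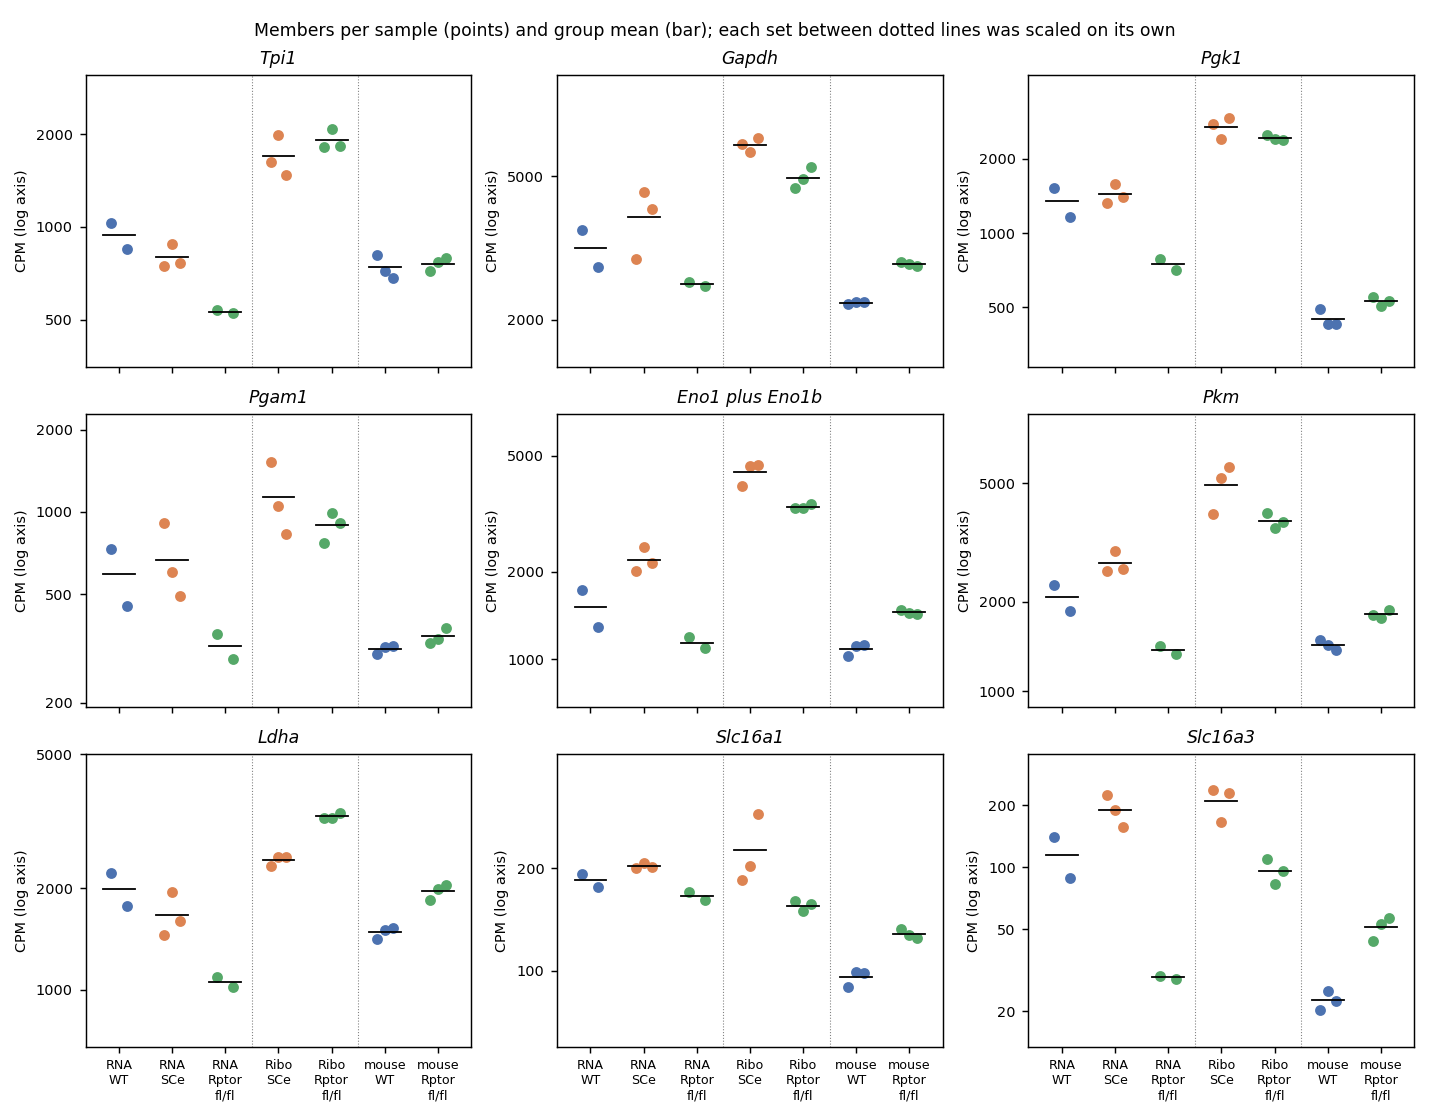
Levels of the genes in every sample, as CPM on a log axis, with the group mean as a bar; RNA-seq, organoid Ribo-seq and mouse Ribo-seq were scaled separately. Slc16a3 mRNA sat at 28.7 and 29.7 CPM in Rptor fl/fl organoids and between 89.2 and 225 CPM in WT and SCe organoids.

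The comparison of Rptor fl/fl with WT organoids asked how loss of Rptor changed mRNA in organoids grown alike. Lower glycolysis and lactate export mRNAs lay lower in Rptor fl/fl organoids: Tpi1, Pgk1, Pkm, Ldha and Slc16a3 fell, Gapdh, Pgam1, enolase and Slc16a1 did not pass the test, and none rose. Thus edgeR called 5 of 9 lower and 0 higher (6 and 0 at an unadjusted p under 0.05, 8 and 0 by DESeq2), where 11% of all 14131 genes tested were called lower and 11.6% higher. The median log2 fold change was -0.82 over the 9 and -0.0049 over all genes tested. The values of the lines did not overlap between WT and Rptor fl/fl in any of the 9, which was not counted over all genes.

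Slc16a3 (MCT4), a transporter known for lactate export from glycolytic cells, changed most. It read 140 and 89.2 CPM in WT lines and 29.7 and 28.7 CPM in those with Rptor fl/fl, so both of the latter lay well below either WT line. The log2 fold change was -1.97 (SE 0.22, adjusted p = 0.0132). Ldha, whose subunit favours lactate from pyruvate, read 2214 and 1776 CPM in WT and 1092 and 1017 in Rptor fl/fl lines (-0.92, SE 0.14, adjusted p = 0.0186).

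Among the enzymes, Tpi1, which interconverts the triose phosphates, read 1031 and 849 CPM in WT and 537 and 526 in Rptor fl/fl lines (-0.82, SE 0.12, adjusted p = 0.0175). Pgk1, the ATP-forming phosphoglycerate kinase, read 1531 and 1162 CPM in WT and 788 and 706 in Rptor fl/fl lines (-0.85, SE 0.16, adjusted p = 0.0274). Pkm, the pyruvate kinase, read 2283 and 1864 CPM in WT and 1421 and 1329 in Rptor fl/fl lines (-0.59, SE 0.13, adjusted p = 0.0383). In each of these enzymes the WT lines differed more from each other than the Rptor fl/fl lines did.

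The other enzymes did not pass the test. Gapdh, the NAD+-dependent dehydrogenase, read 3544 and 2799 CPM in WT and 2551 and 2473 in Rptor fl/fl lines (-0.34, SE 0.14, adjusted p = 0.157). Pgam1, which moves the phosphate group of phosphoglycerate, read 731 and 452 CPM in WT and 356 and 290 in Rptor fl/fl lines (-0.87, SE 0.25, adjusted p = 0.0694). Its WT lines were the most spread of the set. Enolase, which makes phosphoenolpyruvate, read 1736 and 1287 CPM in WT and 1189 and 1094 in Rptor fl/fl lines (-0.41, SE 0.17, adjusted p = 0.142). Slc16a1 (MCT1), the widely used lactate and pyruvate transporter, read 192 and 176 CPM in WT and 170 and 161 in Rptor fl/fl lines. Its log2 fold change was -0.15 with a 95% interval of -0.34 to 0.03 (adjusted p = 0.177), so the fall of Slc16a3 had no counterpart of like size in Slc16a1.

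With 2 lines a group, single lines decided several calls: without the first WT line the calls of Pgk1, Pkm and Ldha were lost (adjusted p = 0.0678, 0.155 and 0.0535), without the first Rptor fl/fl line those of Tpi1, Pgk1, Pkm and Ldha (0.0526, 0.0672, 0.0828 and 0.0521), and without the second Rptor fl/fl line those of Pgk1, Pkm and Ldha (0.081, 0.0993 and 0.0513). Without the second WT line Pgam1 passed the test (-1.18, adjusted p = 0.0239), and the call of Slc16a3 held in all 4 of these fits.

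**Figure D2:**
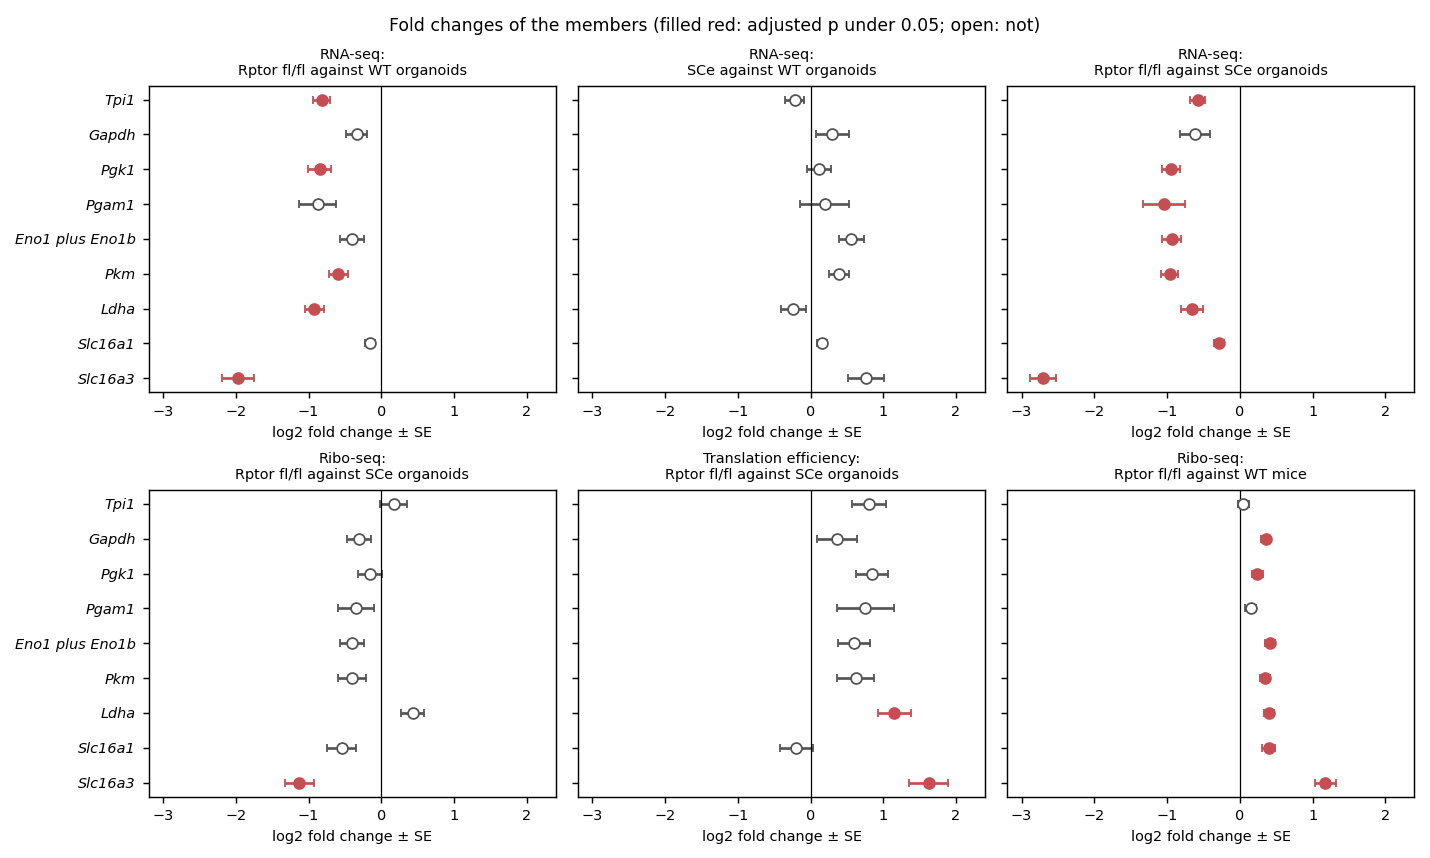
Log2 fold changes with their SE (x axis) of the genes (y axis) in each of the 6 comparisons, filled where the adjusted p is under 0.05. Slc16a3 moved from -1.97 in mRNA of Rptor fl/fl against WT organoids to 1.17 in mouse footprints.

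SCe organoids were compared with WT organoids to see how the medium that enriches stem cells changed the same mRNAs. The intestinal stem cell markers summed to 4005 to 5577 CPM in WT and 1190 to 2379 CPM in SCe mRNA. Of the 11 of them tested, 2 were called higher and 3 lower, where 22.4% and 19.9% of all genes were. With enolase summed, edgeR called 0 of the 9 in either direction (3 higher and 0 lower at an unadjusted p under 0.05, 4 and 0 by DESeq2), where 22.4% of all 14925 genes tested were called higher and 19.9% lower; the median was 0.19 over the 9 and 0.02 over all genes. Slc16a3 read 225, 190 and 157 CPM in SCe organoids, above both WT lines (0.76, SE 0.25, adjusted p = 0.0606). Pkm read 2537, 2953 and 2573 CPM (0.40, SE 0.14, adjusted p = 0.0733), and enolase 2007, 2430 and 2135 CPM (0.56, SE 0.17, adjusted p = 0.0518). Both lay above the WT lines in every SCe sample. Ldha read 1449, 1944 and 1601 CPM and overlapped the WT lines (-0.24, adjusted p = 0.314), and so did Tpi1 at 748, 878 and 765 CPM (-0.22, adjusted p = 0.233). Slc16a1 read 200.2, 206.9 and 202.1 CPM, narrowly above the WT lines (0.16, adjusted p = 0.118). Gapdh (2941, 4525 and 4068 CPM), Pgk1 (1319, 1587 and 1402 CPM) and Pgam1 (910, 601 and 491 CPM) overlapped WT as well. Without the first SCe replicate, Gapdh (0.46, adjusted p = 0.0348), Pkm (0.43, adjusted p = 0.0327), Slc16a1 (0.17, adjusted p = 0.0475) and enolase (0.61, adjusted p = 0.0197) passed the test.

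Against SCe organoids, mRNA of Rptor fl/fl organoids was compared to pair with the footprints of the same groups. Every gene but Gapdh fell: edgeR called 8 of 9 lower and 0 higher (9 and 0 at an unadjusted p under 0.05 and by DESeq2), where 21.8% of all 15103 genes tested were called lower and 21% higher. The median was -0.94 over the 9 and -0.01 over all genes. The lines of Rptor fl/fl lay below all SCe samples in each of the 9, which was not counted over all genes. Slc16a3 fell by 2.70 on the log2 scale (SE 0.18, adjusted p = 0.00108), Pkm by 0.96 (SE 0.12, adjusted p = 0.00376), Pgk1 by 0.94 (SE 0.12, adjusted p = 0.00467) and enolase by 0.94 (SE 0.12, adjusted p = 0.00476). These 4 calls held when any 1 line or replicate was left out. Less firm were the falls of Pgam1 (-1.05, SE 0.29, adjusted p = 0.0383), Ldha (-0.66, SE 0.15, adjusted p = 0.0229), Tpi1 (-0.58, SE 0.11, adjusted p = 0.0115) and Slc16a1 (-0.29, SE 0.07, adjusted p = 0.0245), each of which was lost without either Rptor fl/fl line. Pgam1 and Slc16a1 were also lost without the second SCe replicate (adjusted p = 0.0704 and 0.0837), and Ldha and Slc16a1 without the third (0.0688 and 0.0841). Gapdh did not pass the test (-0.61, SE 0.21, adjusted p = 0.0635) but did without the first SCe replicate (-0.78, adjusted p = 0.00385). The comparison shares its Rptor fl/fl libraries with the one against WT, and the values of the 2 stand side by side only.

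Summing the enolase copies mattered most in SCe organoids. Eno1 has 12 exons, while Eno1b transcripts have 2 exons or 1, and the coding sequences of 1302 bases differ at 8 positions (99.4% identity), with 725 bases as the longest identical stretch. Of windows of 29 bases, near the size of a footprint, 87.6% are identical. In mRNA, Eno1b took 0.169% and 0.118% of the reads of both copies in WT lines and 0.148% and 0.016% in Rptor fl/fl lines, but 61.2%, 61.7% and 61.4% in SCe organoids. In the SCe organoids 90.1% ± 3.0 (SD, n = 3) of the reads of Eno1b stood on the single-exon transcript Eno1b-202, which held 0 in WT and Rptor fl/fl mRNA. In footprints Eno1b took 58.9%, 76.6% and 62.0% in SCe organoids, 66.8%, 68.0% and 71.5% in Rptor fl/fl organoids, and 89.8% to 92.3% in mice. The split therefore lay alike in both groups in footprints and apart in mRNA. Taken alone, Eno1 was called lower in SCe than in WT mRNA (-0.81, SE 0.16, adjusted p = 0.015) and higher in Rptor fl/fl than in SCe mRNA (0.43, SE 0.11, adjusted p = 0.0313). Both directions turned when the copies were summed, to 0.56 and -0.94, and the second also turned, to -0.15, when effective lengths entered the fit. All 11 RNA-seq files listed the same 66244 sequences with the same lengths. How the counting divided shared reads was not tested, so the comparisons are read on the sum.

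**Figure D3:**
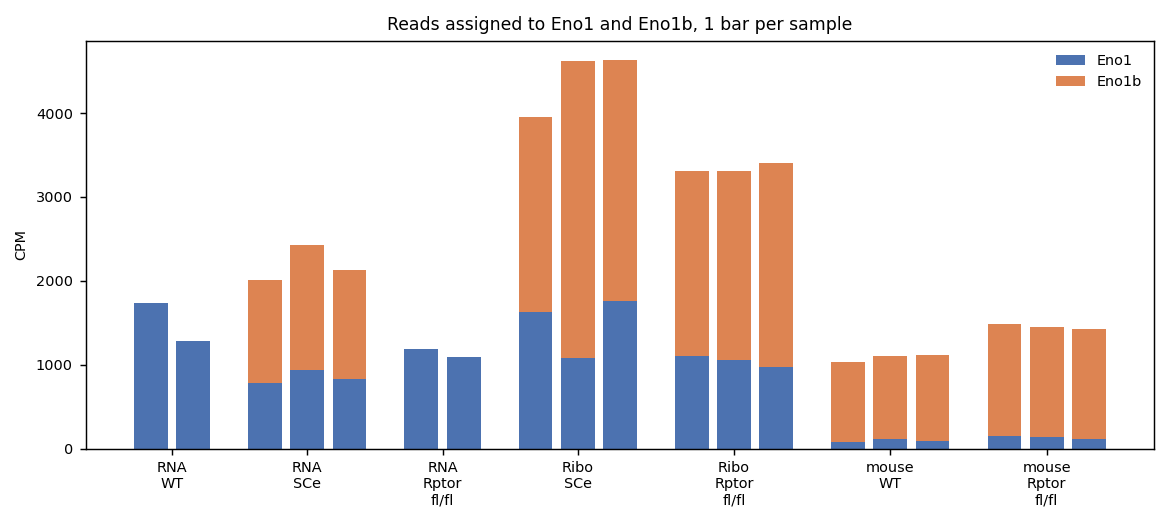
CPM assigned to Eno1 and Eno1b, stacked in 1 bar per sample and grouped along the x axis. Eno1b is near 0 in WT and Rptor fl/fl mRNA and takes 61.2% to 61.7% of the sum in SCe mRNA.

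Footprints of SCe and Rptor fl/fl organoids were compared next, to set beside mRNA. The Rptor fl/fl organoids of Ribo-seq carry RPL22.HA and those of RNA-seq do not. Only Slc16a3 passed the test there, with fewer footprints in Rptor fl/fl organoids, and Ldha lay higher instead of lower without passing it. Thus edgeR called 1 of 9 lower and 0 higher (3 and 1 at an unadjusted p under 0.05, 2 and 1 by DESeq2), where 9.84% of all 10817 genes tested were called lower and 6.63% higher. The median was -0.35 over the 9 and -0.02 over all genes tested. Slc16a3 footprints read 237, 165 and 229 CPM in SCe and 110, 82.6 and 96.1 CPM in Rptor fl/fl libraries, with no overlap (-1.13, SE 0.20, adjusted p = 0.00682). The call was lost narrowly without the second or the third Rptor fl/fl replicate (adjusted p = 0.0503 and 0.0501) and when effective lengths entered the fit (0.0522). Markers of other cell types moved with these groups. Paneth cell markers summed to 3826 to 6516 CPM in SCe and 7157 to 10281 CPM in Rptor fl/fl libraries, and enterocyte markers to 1966 to 5382 and 9810 to 10357 CPM. Goblet cell markers summed to 1861 to 2321 and 4197 to 6268 CPM, and enteroendocrine markers to 58.1 to 130.4 and 611 to 831 CPM. Intestinal stem cell markers summed to 1949 to 3782 and 5522 to 5864 CPM. Of the 11 stem cell markers tested, 6 were called lower and 1 higher, where 9.84% and 6.63% of all genes were. The part of these marker lists in the footprint results was not tested.

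Ldha footprints read 2333, 2475 and 2468 CPM in SCe and 3240, 3241 and 3339 CPM in Rptor fl/fl libraries, so all Rptor fl/fl values lay above all SCe values. The log2 fold change of 0.43 had a 95% interval of 0.07 to 0.79 and an adjusted p of 0.0979. It passed the test without the first SCe replicate (0.41, adjusted p = 0.016). Tpi1 overlapped between the groups, at 1621, 1992 and 1478 CPM in SCe and 1815, 2080 and 1835 CPM in Rptor fl/fl libraries (0.17, SE 0.18, adjusted p = 0.562). Pgk1 overlapped as well, at 2768, 2419 and 2934 CPM and 2505, 2409 and 2393 CPM (-0.15, SE 0.17, adjusted p = 0.57).

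Gapdh footprints read 6140, 5845 and 6390 CPM in SCe and 4642, 4903 and 5316 CPM in Rptor fl/fl libraries (-0.31, SE 0.17, adjusted p = 0.241). Enolase read 3952, 4627 and 4632 CPM and 3313, 3306 and 3407 CPM (-0.40, SE 0.17, adjusted p = 0.136). Neither overlapped between the groups. Pkm read 3952, 5196 and 5683 CPM and 3967, 3545 and 3706 CPM, and the first SCe replicate lay among the Rptor fl/fl values (-0.40, SE 0.19, adjusted p = 0.187). Pgam1, at 1520, 1056 and 834 CPM and 769, 995 and 913 CPM, overlapped (-0.35, SE 0.24, adjusted p = 0.362). Slc16a1 read 185, 203 and 289 CPM in SCe and 160, 149 and 157 CPM in Rptor fl/fl libraries, without overlap (-0.54, SE 0.20, adjusted p = 0.0958). Without the first SCe replicate, Pkm (-0.54, adjusted p = 0.00643), enolase (-0.47, adjusted p = 0.00706) and Slc16a1 (-0.68, adjusted p = 0.0162) passed the test.

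Footprints on the 5′ region before the coding sequence were counted apart in organoids. They made up 23.0%, 20.9% and 24.1% of all footprints of Slc16a3 in Rptor fl/fl libraries and 21.2%, 16.8% and 8.23% in SCe libraries. For Slc16a1 the shares were 8.39%, 8.02% and 6.40% and 19.0%, 12.2% and 4.0%. Over all genes they were 3.97%, 4.25% and 3.82% and 6.98%, 5.42% and 2.97%. The 5′ share of Slc16a3 was thus above that of all genes in each of the 6 libraries, and the groups overlapped in it.

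Translation efficiency, the change of footprints minus the change of mRNA between Rptor fl/fl and SCe organoids, was higher for Ldha and Slc16a3. It was above 0 in 8 of 9, of which edgeR called 2 higher and 0 lower (6 and 0 at an unadjusted p under 0.05 and by DESeq2), where 1.12% of all 10747 genes tested were called higher and 1.81% lower. The median was 0.75 over the 9 and -0.03 over all genes tested. The Paneth cell markers had a median of 1.59 in this measure, whose part in the result was not tested. The organoids behind the assays were not the same: Rptor itself differed from SCe by -1.89 in mRNA and -0.53 in footprints, and the fetal-like markers tested had medians of 2.11 and -0.09. Differences between assays and between these organoids cannot be told apart. For Ldha the ratio of mean footprint CPM to mean mRNA CPM was 1.46 in SCe and 3.10 in Rptor fl/fl organoids, a difference of 1.15 on the log2 scale (SE 0.23, adjusted p = 0.0286). For Slc16a3 it was 1.1 and 3.30, a difference of 1.63 (SE 0.27, adjusted p = 0.0141).

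Tpi1 (0.81, SE 0.23, adjusted p = 0.0897), Pgk1 (0.85, SE 0.22, adjusted p = 0.066), Pgam1 (0.75, SE 0.39, adjusted p = 0.317), Pkm (0.62, SE 0.25, adjusted p = 0.201), enolase (0.60, SE 0.22, adjusted p = 0.157) and Gapdh (0.36, SE 0.27, adjusted p = 0.493) did not pass the test. Their footprint to mRNA ratios were 1.59 to 2.13 in SCe and 1.97 to 3.59 in Rptor fl/fl organoids. Slc16a1 was the exception in sign, with ratios of 1.11 and 0.938 (-0.20, SE 0.23, adjusted p = 0.693). The lactate transporters therefore stood at the opposite ends of the 9, and the difference between them was not tested.

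Both calls of translation efficiency rested on single lines. Without the first or the second Rptor fl/fl RNA-seq line, those of Slc16a3 (adjusted p = 0.0938 and 0.0746) and Ldha (0.148 and 0.159) were lost. The call of Ldha was also lost without the second or the third SCe RNA-seq replicate (0.075 and 0.0801) and without any 1 Rptor fl/fl Ribo-seq library (0.0674 to 0.0885). Pgk1 passed without the first SCe RNA-seq replicate (0.92, adjusted p = 0.0363), and Tpi1 passed without the second SCe Ribo-seq replicate (adjusted p = 0.0475). Without the first SCe RNA-seq replicate, which stood apart, Ldha (1.25, adjusted p = 0.0126) and Slc16a3 (1.50, adjusted p = 0.0133) were still called.

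**Figure D4:**
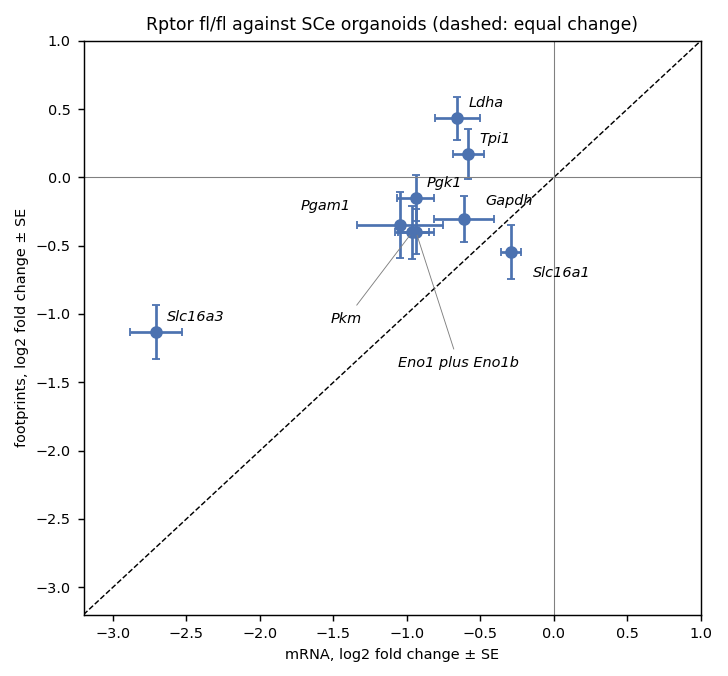
Log2 fold change of mRNA (x axis) and of footprints (y axis), Rptor fl/fl against SCe organoids, with SE; the dashed line marks equal change. All genes but Slc16a1 lie above the line, Slc16a3 at -2.70 and -1.13 and Ldha at -0.66 and 0.43.

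In mice, ribosome footprints of WT and Rptor fl/fl animals asked what loss of Rptor in Lgr5 cells changed in the tissue. The footprints of lower glycolysis and lactate export genes rose: Gapdh, Pgk1, enolase, Pkm, Ldha, Slc16a1 and Slc16a3 were called higher, and Tpi1 and Pgam1 did not pass the test. Thus edgeR called 7 of 9 higher and 0 lower (7 and 0 at an unadjusted p under 0.05 and by DESeq2), where 7.47% of all 11515 genes tested were called higher and 5.97% lower. The median was 0.35 over the 9 and -0.02 over all genes. The pulldown was not limited to stem cells by its markers: the intestinal stem cell markers summed to 648 to 698 CPM in WT and 419 to 670 CPM in Rptor fl/fl mice, and the 12 enterocyte markers to 67733 to 69293 and 77239 to 81090 CPM. Of the 10 stromal markers, 7 were called higher and 0 lower (1087 to 1102 CPM in WT, 1338 to 1593 in Rptor fl/fl). Goblet cell markers had 5 of 10 called higher and 0 lower (27769 to 28225 and 34565 to 38036 CPM). Paneth cell markers had 7 of 12 called lower and 0 higher. Immune cell markers summed lower (1371 to 1430 and 1153 to 1233 CPM), with 3 called higher and 1 lower. The part of these lists in the mouse result was not tested. The mouse reference sequences take in 5′ regions, unlike those of the organoid footprints.

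Slc16a3 footprints read 20.2, 25.1 and 22.5 CPM in WT and 43.8, 53.3 and 56.8 CPM in Rptor fl/fl mice, so the lowest Rptor fl/fl value was well above the highest WT value. The log2 fold change was 1.17 (SE 0.14, adjusted p = 5.44e-05). Slc16a1 read 89.7, 99.1 and 98.4 CPM in WT and 132, 127 and 124 CPM in Rptor fl/fl mice (0.40, SE 0.09, adjusted p = 0.00601). Ldha read 1413, 1508 and 1527 CPM and 1848, 1989 and 2044 CPM (0.40, SE 0.07, adjusted p = 0.000964). In all 3 the groups did not overlap, and the share of all genes without overlap in mice was not counted.

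Of the enzymes, enolase read 1029, 1106 and 1118 CPM in WT and 1480, 1447 and 1428 CPM in Rptor fl/fl mice (0.42, SE 0.07, adjusted p = 0.000531). Gapdh read 2213, 2242 and 2239 CPM and 2888, 2856 and 2811 CPM (0.35, SE 0.06, adjusted p = 0.00103). Pkm read 1492, 1428 and 1377 CPM and 1799, 1765 and 1879 CPM (0.34, SE 0.07, adjusted p = 0.00244). These 3 were also without overlap, and the spread within a group was small beside the difference.

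Pgk1 read 492, 429 and 428 CPM in WT and 549, 504 and 529 CPM in Rptor fl/fl mice (0.24, SE 0.08, adjusted p = 0.0482). This call was lost without WT replicate 2 or 3 (adjusted p = 0.186 and 0.195), without Rptor fl/fl replicate 2 or 3 (0.0864 and 0.104), without TMM scaling (0.177), and with effective lengths in the fit (0.0862). Tpi1 overlapped, at 813, 719 and 685 CPM in WT and 719, 768 and 790 CPM in Rptor fl/fl mice (0.05, SE 0.08, adjusted p = 0.755). Pgam1 read 301, 320 and 324 CPM and 332, 342 and 376 CPM, which did not overlap (0.15, SE 0.08, adjusted p = 0.228). The other 6 calls held when any 1 mouse was left out.

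Organoid mRNA and mouse footprints were thus called in opposite directions in Pgk1, Pkm, Ldha and Slc16a3. The mouse call of Pgk1 is the one lost in several settings above. The share of all genes called in opposite directions was not counted. The assays, the drivers of Cre and the cell mixtures differ between organoid mRNA and mouse footprints, so these cannot be told apart. The difference itself was not tested.

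The share of Pkm-202, which carries the M1-type exon, was taken of the reads of Pkm-201 and Pkm-202. In mRNA it was 5.67% and 5.56% in WT lines, 8.59%, 5.28% and 5.22% in SCe organoids, and 7.74% in both Rptor fl/fl lines. In organoid footprints it was 9.78%, 7.67% and 7.48% in SCe and 4.40%, 2.32% and 3.8% in Rptor fl/fl libraries, without overlap. Organoids thus carried mostly the M2-type transcript in all groups. In mice it was 49.8%, 52.1% and 52.4% in WT and 57.7%, 54.0% and 56.5% in Rptor fl/fl libraries, also without overlap. These shares were not tested. The counted sequences of Pkm-201 and Pkm-202 were 2432 and 2041 bases long in RNA-seq and 1922 and 1717 in mouse Ribo-seq. In organoid Ribo-seq both were 1642 bases long. Sequence outside the exon pair thus also entered the RNA-seq and mouse shares, and organoids and mice were counted on unlike sequences. Smooth muscle, which uses the M1-type exon, was read by 9 markers that summed to 1787 to 1934 CPM in WT mice, 1619 to 1867 CPM in Rptor fl/fl mice and 23.0 to 79.1 CPM in organoids. Its part in the mouse share was not tested.

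**Figure D5:**
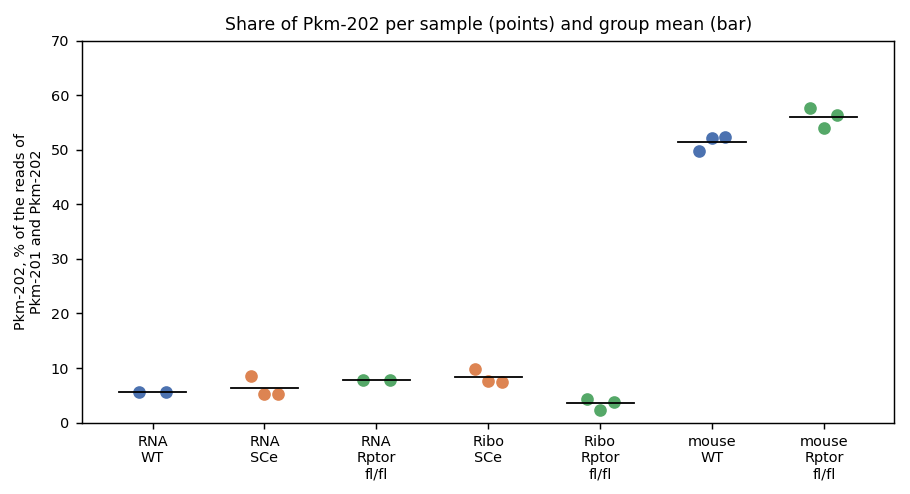
Share of Pkm-202 among reads of Pkm-201 and Pkm-202 (y axis, percent) per sample, with the group mean as a bar, by group along the x axis. The organoid samples sit at 9.78% or less and the mouse samples at 49.8% or more, on counted sequences of unlike length.

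Other transcripts of the listed genes also shifted in footprints. Ldha-212 took 2.72% ± 1.25 (SD, n = 3) of the footprints of Ldha in SCe and 13.6% ± 1.6 in Rptor fl/fl organoids. Tpi1-203 took 31.9% ± 0.5 and 20.4% ± 3.0 of those of Tpi1. Transcripts of a gene share most of their sequence, so these shares rest on how the counting divided shared reads.

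The genes nearest in pattern were sought over the 7 RNA-seq samples among 15135 genes, by Pearson correlation with the mean of the standardised log2 CPM of 7 enzymes (Tpi1, Gapdh, Pgk1, Pgam1, Eno1, Pkm and Ldha). They were Kdm8 (r = 0.985), Tomm6 (0.981), Pdk1 (0.981), Rab33b (0.980) and Ube2m (0.974). Pdk1, the kinase that shuts pyruvate dehydrogenase, averaged 223 CPM in WT, 144 in Rptor fl/fl and 230 in SCe mRNA. This pattern takes Eno1 as counted, whose split from Eno1b is uncertain. Without Eno1 the nearest were Kdm8 (0.993), Fam57b (0.993), Pdk1 (0.993), Ube2m (0.990) and Mab21l3 (0.986), so 3 of 5 were shared. These correlations describe samples that fall into 3 groups.

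Upstream of Tpi1, the 20 genes of upper glycolysis tested in mRNA of Rptor fl/fl against WT organoids had 1 that rose (Pfkfb2, 0.39) and 2 that fell (Aldoc, -0.88; Pfkl, -0.59), with a median of -0.28, where 11.6% of all genes tested were called higher and 11% lower. In mice 6 of 19 rose and 3 fell, where 7.47% and 5.97% of all genes did, with a median of 0.30. Those that rose include the glycolytic aldolase Aldoa (0.43) and Pfkfb4 (0.70), which makes an activator of phosphofructokinase, and those that fell include the sugar transporters Slc2a5 (-0.55) and Slc2a2 (-0.53).

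Downstream, Bsg, the chaperone that carries Slc16a1 and Slc16a3 to the cell surface, did not differ beyond the spread between Rptor fl/fl and WT mRNA (560 and 579 CPM in WT and Rptor fl/fl; 0.05, SE 0.09, adjusted p = 0.733). It fell against SCe organoids both in mRNA (-0.93, adjusted p = 0.00239) and in footprints (1772 to 791 CPM; -1.16, SE 0.22, adjusted p = 0.00867). Ldhb, the subunit that favours pyruvate, rose in Rptor fl/fl against WT mRNA from 0.26 to 4.26 CPM, which is small beside the 1054 CPM of Ldha. Of 20 other genes known to respond to HIF-1, which include Pfkfb4, 13 fell and 0 rose in that comparison, where 11% of all genes were called lower and 11.6% higher, with a median of -0.82 (among them Ddit4, -1.73, an inhibitor of mTORC1, and Higd1a, -0.87). In mice 4 of 17 rose and 0 fell, where 7.47% and 5.97% of all genes did, with a median of 0.29.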

How the data were processed

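RNA-seq and Ribo-seq libraries of mouse organoids and mice were grouped by their labels. Per the submitters' processing notes and the study's methods, the authors trimmed footprints with cutadapt 1.18 and quantified all libraries with Salmon 1.1.0 on GENCODE vM21 (mm10). The deposited values used are Salmon's estimated counts per transcript. A deposited table of the authors' own comparison of translation efficiency (ratios and p-values) was not used. The genes and gene lists were chosen with earlier results of these data known.

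Estimated counts were added up per gene, leaving out the entries for 5′ regions in organoids. Both technical libraries of an RNA-seq line were then joined, and sums were rounded. In R 4.3.3, edgeR 4.0.16 filtered genes with filterByExpr, scaled libraries by TMM and applied the quasi-likelihood test, with Benjamini-Hochberg adjustment over all genes tested and a threshold of 0.05. All adjusted p-values are from this test unless DESeq2 1.42.0 is named. Each fit used only the groups compared. For translation efficiency, RNA-seq and Ribo-seq entered a joint fit with an assay by group term. CPM were taken on the TMM-scaled library sizes, separately for RNA-seq, organoid Ribo-seq and mouse Ribo-seq. The sample titles number the organoid lines and the mice and give no further source, so p-values measure the spread between these samples. The lower depth of Ribo-seq makes footprints less precise than mRNA. The fits were also run on simulated counts with the same spread between replicates for every gene. That run does not cover uneven replicates such as those here. Every listed gene was named in every comparison, with Eno1 and Eno1b mostly given as their sum. From each pathway list at most the 2 genes with the smallest adjusted p per direction were named. Bsg was also given where it was not called. The 5 genes most alike were those of highest Pearson correlation.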

Additional observations from a re-analysis of the deposited data

Results flagged for a closer look

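Ldha and Slc16a3 differed in how far mRNA and footprints moved between Rptor fl/fl and SCe organoids. The test of that difference gave 1.15 on the log2 scale for Ldha (SE 0.23, adjusted p = 0.0286), whose footprints were higher in 3 of 3 Rptor fl/fl libraries while its mRNA fell. It gave 1.63 for Slc16a3 (SE 0.27, adjusted p = 0.0141), whose footprints and mRNA both fell, the mRNA further.

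Pgk1, Pkm, Ldha and Slc16a3 were called lower in Rptor fl/fl than WT organoid mRNA and higher in Rptor fl/fl than WT mouse footprints. The rule that picked these genes asked for opposite calls and for no overlap of samples in either comparison. The share of all genes that meet it was not counted. The pairs of log2 fold changes were -0.85 and 0.24 for Pgk1, -0.59 and 0.34 for Pkm, -0.92 and 0.40 for Ldha, and -1.97 and 1.17 for Slc16a3. The difference between organoids and mice was not tested. Assay, Cre driver and cell mixture differ between them and cannot be told apart.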

How the results depend on the processing

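Of the recomputed values of the listed genes, 829 kept their direction and their side of the threshold, 77 lost the call, 57 gained it and 12 changed sign. The cause was not tested. Alternatives with enolase summed in the other settings, full sequence length and the pattern without Eno1 were chosen after seeing the data. The counts here take Eno1 and Eno1b apart.

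In Rptor fl/fl against WT mRNA, 5 genes were lower, with 8 by DESeq2, 9 with technical libraries kept separate and 0 at a threshold of 0.01. Calls over all genes were 3195, with 143 at 0.01, 7208 with separate technical libraries and 1544 with the 3 RNA-seq groups fitted together. In SCe against WT mRNA, 1 was higher and 1 lower. The higher count was 4 by DESeq2 and with separate technical libraries, 2 without TMM and with the groups fitted together, and 0 with enolase summed. The lower count was 0 with effective lengths, at 0.01 and with enolase summed, and calls over all genes went from 6309 to 2980 at 0.01. In Rptor fl/fl against SCe mRNA, 1 was higher, and 0 with effective lengths, at 0.01, with enolase summed or with the groups fitted together. The lower count of 8 was 4 at 0.01, and calls over all genes went from 6452 to 3041. In organoid footprints 0 were higher, and 1 by DESeq2 and with effective lengths (Ldha), where the lower count of 1 was 0. Calls over all genes went from 1781 to 658 with effective lengths and 668 at 0.01. For translation efficiency 3 were higher, with 6 by DESeq2, 5 with separate technical libraries and 1 at 0.01. The lower count of 0 was 1 by DESeq2 and with separate technical libraries. Calls over all genes were 315, with 1333 by DESeq2, 203 without a count filter, 120 with effective lengths, 48 at 0.01 and 1312 with separate technical libraries. In mice 8 were higher, a count that stayed within 1.5 times in every setting that kept all libraries, and calls over all genes went from 1547 to 678 with effective lengths and 796 at 0.01.

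The labels name no shared source behind a replicate number, so the numbers were not taken as pairs. The study's methods describe an extra set of Rptor fl/fl animals, induced in vitro to give paired samples, without naming its libraries. Same-numbered deviations correlated at 0.30 between WT and Rptor fl/fl mRNA. With 2 lines in each of these groups, both numbers give this value by construction. The correlations were 0.16 and 0.14 between WT and SCe, and 0.25 and 0.20 between SCe and Rptor fl/fl mRNA. In organoid and mouse footprints they lay between -0.04 and 0.03. Each pair of RNA-seq groups shared 2 numbers. With the replicate block, Rptor fl/fl against WT mRNA had 8 lower. SCe against WT mRNA had 2 higher, 0 lower and 3154 calls over all genes, and Rptor fl/fl against SCe mRNA had 0 higher, 5 lower and 3413 calls. Translation efficiency under the block had 1 higher and 4 calls over all genes. With enolase read as the sum, calls not made under the block were Tpi1 (adjusted p = 0.0648), Ldha (0.0929) and Slc16a1 (0.132) in Rptor fl/fl against SCe mRNA, Ldha (0.244) and Slc16a3 (0.0586) in translation efficiency, and Pgk1 in mice (0.0589). Calls gained were Gapdh, Pgam1 and enolase in Rptor fl/fl against WT mRNA (0.0478, 0.00509 and 0.0306) and Slc16a3 in SCe against WT mRNA (0.0333). Counts in organoid and mouse footprints stayed within 1.5 times.

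Without 1 line or replicate, the lower count in Rptor fl/fl against WT mRNA ran from 1 to 6 and the higher count was 0 throughout, with 939 to 2126 calls over all genes. SCe against WT mRNA gave 1 to 4 higher, 0 to 1 lower and 2027 to 9530 calls, the last without the first SCe replicate. Rptor fl/fl against SCe mRNA gave 0 to 1 higher, 4 to 9 lower and 2509 to 9101 calls. Organoid footprints gave 0 to 1 higher, 0 to 4 lower and 669 to 2682 calls. Translation efficiency gave 1 to 4 higher, 0 to 1 lower and 25 to 951 calls. Mice gave 6 to 8 higher, 0 lower and 897 to 1954 calls. Where 1 line was left in an arm, it was assumed to vary like the other group.

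Signs turned for Eno1 with enolase summed (0.56 in SCe against WT mRNA, -0.94 in Rptor fl/fl against SCe mRNA, 0.60 in translation efficiency) and with effective lengths (-0.15 in Rptor fl/fl against SCe mRNA). In organoid footprints, effective lengths gave -0.018 for Tpi1 and 0.024 for Gapdh. In SCe against WT mRNA without 1 line or replicate, Pgk1 ran from -0.083 to 0.31 and Pgam1 from -0.12 to 0.56. In translation efficiency Slc16a1 ran from -0.33 to 0.035. In mice Tpi1 was -0.032 without TMM and ran from -0.0034 to 0.12 without 1 mouse.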

Other observations

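Around lactate export, other transporters moved with genotype in mice. Of 9 other monocarboxylate transporters and partners tested, 2 rose and 2 fell, where 7.47% of all 11515 genes were called higher and 5.97% lower. Slc5a8, the sodium-coupled carrier of lactate and short fatty acids, rose from 92.9 to 200.6 CPM in Rptor fl/fl mice (1.07 on the log2 scale, adjusted p = 1.49e-06), and Emb, a chaperone of these transporters, rose by 0.97. Slc16a9 (-1.25) and Slc5a12 (-0.41) fell.

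At the entry of pyruvate into mitochondria, 5 of 21 genes rose and 0 fell in mice by edgeR, beside the same shares over all genes. Pdk4, a kinase that shuts pyruvate dehydrogenase, rose from 22.6 to 73.0 CPM (1.58, adjusted p = 4.12e-07), and Pcx, pyruvate carboxylase, rose by 0.57. In organoid mRNA against WT, 1 of 20 rose and 3 fell, where 11.6% of all genes were called higher and 11% lower. Among 14 regulators of glycolytic genes, 1 rose and 2 fell in Rptor fl/fl against WT organoid mRNA, near those shares over all genes, with a median of -0.05. Myc rose (0.73), and Egln3 (-1.69) and Egln1 (-0.46), hydroxylases that mark HIF subunits for decay, fell. In mouse footprints 2 of the 14 rose (Mlx by 0.34 and Hif1a by 0.33) and Myc fell (-0.48), where 7.47% and 5.97% of all genes did.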
